A study of Mus musculus with 17 samples.

Results

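Of the 14510 Sirt6 peaks that the authors called in wild-type (WT) mouse embryonic stem cells, 4866 stood alone and carried no acetylation call. They made up 33.5% of the list (Wilson 95% interval 32.8% to 34.3%). A peak was counted as isolated when no other peak of the list lay within 10000 bp of it, edge to edge, and as free of acetylation calls when it overlapped none of the 8 deposited H3K9ac and H3K56ac lists by 1 bp or more. The other peaks without an acetylation call, 7923 in number, had a neighbour within that distance and are called clustered here. A further 950 isolated and 771 clustered peaks overlapped at least one acetylation peak. The isolated peaks were chosen by their calls in the Sirt6 list, their spacing in it and the acetylation calls, so their spacing, their fold enrichment and their lack of acetylation are described and not tested.

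Sirt6 is a NAD-dependent enzyme that removes acetyl groups from histone H3 at lysine 9 (H3K9ac) and lysine 56 (H3K56ac). Both marks are found at active promoters and enhancers, and Sirt6 is known for holding genes in check where it sits on chromatin. In embryonic stem cells Sirt6 has been studied for its effect on Tet enzymes, which oxidise 5-methylcytosine in DNA to 5-hydroxymethylcytosine.

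The cells were embryonic stem cells of strain 129, either Sirt6 knockout (KO) or WT. Those for chromatin immunoprecipitation followed by sequencing (ChIP-seq) had been kept on irradiated mouse feeder cells, which were depleted by plating. H3K9ac and H3K56ac ChIP-seq was done for each genotype after all-trans retinoic acid (RA) for 2 days without leukemia inhibitory factor, and in untreated cells. The RA stock, 0.01 M, was diluted 10000-fold, and its removal preceded the harvest by a day. Sirt6 ChIP-seq was done in untreated KO cells, with a lower and a higher amount of antibody, and in untreated WT cells. CMS-IP, which enriches bisulfite-converted DNA that carried 5-hydroxymethylcytosine, was done with an input library in untreated KO cells and in untreated WT cells. Whether a genotype was a single clone the sources used here do not say. Each of the 17 groups held 1 library, so differences between genotypes or treatments have no replicate check and are not tested. All intervals below are 95% intervals over peaks, windows or reads. They cover counting error only, and peaks of one library are not replicates. Positions are in mouse build mm9. The gene annotation and sequence tables used here are of another build, so genes and sequences at the peaks were not analysed.

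The WT Sirt6 library was shallow, with 2008232 tags after filtering and 6251712 in its whole-cell extract control. The KO Sirt6 libraries held 48956556 tags with more antibody and 40006795 with less, and their lists held 0 peaks, so none of the isolated peaks was called in KO. The KO calls used a separate control of 5113859 tags. The 8 acetylation libraries held 5782181 to 10250030 tags and gave 2063 to 3593 peaks each. No control library entered the acetylation calls, and a peak without an acetylation call is one that these lists did not reach at a q limit of 0.01, not one shown to lack the mark.

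The isolated peaks were small in number of reads, as were the Sirt6 peaks of the whole list. The pileup, fold and q of each peak are the authors' own values, from MACS2. Their pileup, the number of overlapping fragments at the summit, had a median of 10 and ran from 4 to 43, with the middle 50% of peaks between 7 and 13. A pileup of 10 has an exact Poisson interval of 4.80 to 18.4 fragments. A pileup of 4 to 6 was found at 613 peaks (12.6%), of 7 to 10 at 2222 peaks (45.7%), of 11 to 20 at 1904 peaks (39.1%) and of more than 20 at 127 peaks (2.61%). The median fold enrichment over the local background was 8.08 (interval 7.92 to 8.08), with a range of 4.04 to 24.0. The median length was 397 bp (389 to 406), and 466 peaks (9.58%) had the shortest length that the list holds, 220 bp, which is the fragment length the peak caller used. The median −log10 q was 9.63, and 2100 peaks (43.2%) reached a −log10 q of 10, against 44.4% of the whole list. The medians of the whole list were a pileup of 10, a fold of 8.08, a length of 384 bp and a −log10 q of 9.63. Of its peaks, 10.1% had the shortest length. Small peaks were therefore not particular to the isolated ones.

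The fold enrichment of an isolated peak was very nearly a restatement of its pileup. Fold and pileup ranked the 4866 peaks alike (Spearman rho 0.948, a description, since the fold is computed from the pileup), and fold and −log10 q did so almost completely (0.999). When the fold is read as the pileup plus 1 over the local background plus 1, the background behind each value can be worked out. For 2066 isolated peaks (42.5%, against 39.3% of the whole list) it was the lowest value in the list, 0.237 fragments. For another 1340 peaks (27.5%) it was 0.321 fragments, equal within 0.001 to the ratio of ChIP to control tags and so to a single control fragment after scaling. For 451 peaks (9.27%) it was 0.642, which corresponds to a second control fragment. Only 15 isolated peaks (0.308%) had a background of 1 fragment or more. The lowest value lay below that of a single scaled control fragment. The denominator of most folds therefore rested either on that lowest value or on a few control fragments.

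**Figure D1:**
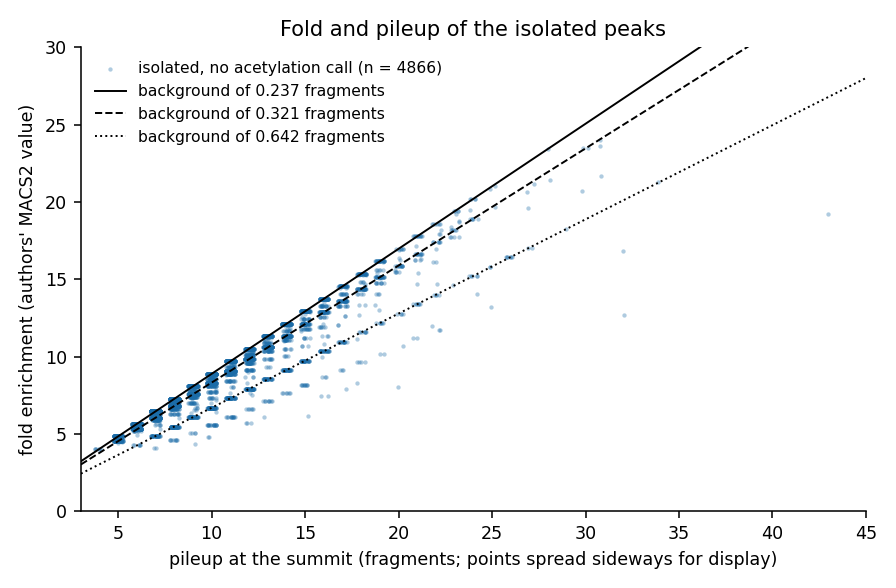
Fold enrichment (authors' value, y axis) against pileup at the summit in fragments (x axis) for the 4866 isolated Sirt6 peaks without acetylation calls. Each point is a peak and the lines are the folds that local backgrounds of 0.237, 0.321 and 0.642 fragments give. Most points lie on or between the lines, and the peak at a pileup of 43 has a fold of 19.3.

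Most of the 10 isolated peaks with the highest fold lay on chromosomes 8 and 14. At a fold of 15 or more, a limit chosen after the values were seen, most lay elsewhere. Of 216 such isolated peaks, chromosome 8 held 33, chromosome 14 held 18, and chromosomes 2, 7 and 11 held 16 each. The highest fold, 24.0, belonged to a peak of 1015 bp on chromosome 8 from 97876004 to 97877018, with a pileup of 31 fragments (exact Poisson interval 21.1 to 44.0) over a background of 0.333. Its next Sirt6 peak lay 19377 bp away and the nearest acetylation peak 362944 bp away. A peak on chromosome 16 from 11253577 to 11254299 had a fold of 23.6, also from a pileup of 31. The third, on chromosome 14 from 63456535 to 63457165, had a fold of 23.5 from a pileup of 30. These leading peaks differ by less than the counting error of their pileups, so their order carries no weight.

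The other peaks among the 10 highest had folds of 21.0 to 23.5. On chromosome 8 they lay from 72565931 to 72567524, from 67471117 to 67471602 and from 124474921 to 124475540. On chromosome 14 they lay from 22569791 to 22570425, from 105575395 to 105576990 and from 63741346 to 63742171. The last lay on chromosome 4 from 132324220 to 132324933. All 10 stood at least 37073 bp from any acetylation peak. The peak on chromosome 8 from 124474921 had a CMS-IP window higher in KO at 1920 bp, the only one of the 10 with a listed window within 10000 bp.

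At the other end of the range, the lowest fold was 4.04, from a pileup of 4 fragments (exact Poisson interval 1.09 to 10.2). Isolated peaks with a pileup of 4 also lay on chromosomes 5, 7 and X. The 3 peaks named here are therefore only the first of a tie, by chromosome name and start. A pair of these lay on chromosome 10, from 27545421 to 27545640, with a CMS-IP window lower in KO at 420 bp, and from 69708200 to 69708419. The last of those named lay on chromosome 11 from 113426849 to 113427068. The longest isolated peaks measured 2045 bp, on chromosome 14 from 118634508 to 118636552, then 1990 bp, on chromosome 14 from 62299921 to 62301910, and 1908 bp, on chromosome 13 from 37917741 to 37919648. The folds of the second and the third were 12.2 and 10.5. The highest pileup, 43 fragments (31.1 to 57.9), stood on chromosome 14 from 119104730 to 119106220. Its background of 1.28 fragments kept its fold at 19.3, below the 10 highest. That peak was singled out after its values were seen.

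Isolated peaks were slightly taller and longer than clustered peaks without acetylation calls, and lower and shorter than isolated peaks with such a call. The median fold was 8.08 in isolated and 7.57 in clustered peaks, a difference of 0.516 (interval 0.354 to 0.732). The median pileup was 10 in isolated and 9 in clustered peaks, so the difference amounted to a single fragment. The median length was 397 bp in isolated and 351 bp in clustered peaks, a difference of 46 bp (36.0 to 56.3). With peaks joined within 1000 bp the difference was 18 bp in length (-9.29 to 45.7) and 0.198 in fold (-0.0821 to 0.612), and both intervals held 0. The differences in fold and pileup were 0 among Sirt6 peaks with a −log10 q of at least 10. A fold of 15 or more was reached by 216 isolated peaks (4.44%) and by 299 clustered peaks (3.77%), a limit chosen after the values were seen. Isolated peaks that did overlap an acetylation peak had a median fold of 10.5, a median pileup of 15 and a median length of 553 bp. The same medians in clustered peaks with an acetylation call were 11.2, 15 and 556 bp. All these values come from the list and the calls that formed the classes, so they describe the classes and support nothing beyond that.

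**Figure D2:**
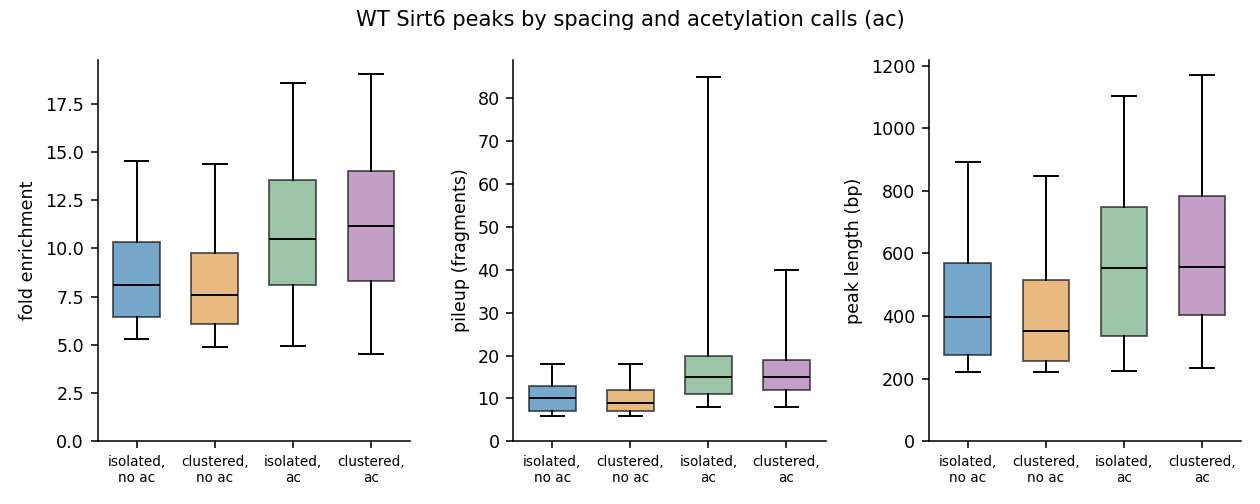
Fold enrichment, pileup in fragments and length in bp of the WT Sirt6 peaks in 4 classes: isolated without an acetylation call (n = 4866), clustered without one (n = 7923), isolated with one (n = 950) and clustered with one (n = 771). Boxes span the middle 50% with the median as a line, and whiskers reach the 5th and 95th percentiles. The 2 classes without a call overlap closely, and their medians lie below those of the 2 classes with one. The boxes of fold and of length overlap across all 4 classes.

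The isolated peaks ranged from barely apart to remote. The median distance to the next Sirt6 peak was 51018 bp (49380 to 52917), and the middle 50% of peaks lay between 25710 and 112703 bp. The distance was 10000 to 20000 bp at 863 peaks (17.7%), up to 50000 bp at a further 1527 (31.4%), up to 100000 bp at 1107 (22.7%) and up to 1000000 bp at 1309 (26.9%). It was larger still, or without a value because no other peak lay on the sequence, at 60 peaks (1.23%), and 11 of these lay on chromosome X. Peak height was level up to 100000 bp and lower in the more remote classes. Median pileup was 10 in each of the classes up to 100000 bp, 9 up to 1000000 bp and 7 beyond. Median fold was 8.12 at 10000 to 20000 bp, 7.57 between 100000 and 1000000 bp and 6.47 beyond. Median length in the same classes was 415, 369 and 275 bp. The largest measured distance was 3872373 bp, at a peak on chromosome X from 27143180 to 27143408 with a fold of 6.05 and a pileup of 7. That peak too was singled out after its values were seen.

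The peaks next to the limit of 10000 bp had folds in the same range on both sides. Just inside, at 10009 bp, a peak on chromosome 19 from 44220400 to 44220841 had a fold of 6.81. At 10014 bp, a peak on chromosome 11 from 102146384 to 102146708 had a fold of 5.30. A pair on chromosome 9, from 45636354 to 45636800 and from 45646820 to 45647108, faced each other at 10019 bp with folds of 10.6 and 7.28. Just outside, at 9984 bp, a peak on chromosome 18 from 37896554 to 37896859 had a fold of 7.28. A pair on chromosome 2, from 174110217 to 174110436 and from 174120369 to 174120855, faced each other at 9932 bp with folds of 6.47 and 9.70.

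The density of isolated peaks varied between chromosomes by more than counting error. Chromosome 11 held 367 of them, or 3.01 per Mb (exact Poisson interval 2.71 to 3.34) of the span that the deposited files cover on it. Chromosome 2 followed with 2.35 per Mb (427 peaks), and chromosomes 17 and 19 each had 2.28 per Mb. Among autosomes the lowest density was on chromosome 1, with 1.32 per Mb (261 peaks). It was lower again on chromosome X, with 0.864 per Mb (0.729 to 1.02; 144 peaks), and on chromosome Y, where 1 isolated peak lay in a covered span of 2.86 Mb. Another 14 isolated peaks lay on random or unplaced sequences, of 62 Sirt6 peaks there.

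The density of isolated peaks mostly followed that of all Sirt6 peaks, with the largest departure on chromosome X and smaller ones on autosomes. Chromosome 8 carried 7.04 Sirt6 peaks per Mb and 1.91 isolated ones, while chromosome 2 carried 5.96 and 2.35. Chromosome 11 carried 10.1 Sirt6 peaks per Mb, of which 29.8% (Wilson interval 27.3% to 32.4%) were isolated and free of acetylation calls. Chromosome X carried 1.54 per Mb, of which 56.2% (50.1% to 62.2%) were. On the other 18 autosomes the share lay between 27.1% on chromosome 8 (24.3% to 30.1%) and 39.4% on chromosome 2 (36.5% to 42.3%). The order of chromosomes 11 and X thus turns round when isolated peaks are counted per Sirt6 peak instead of per Mb. Peaks on a sparsely covered chromosome have fewer neighbours that could lie within 10000 bp, and the rule itself uses those neighbours.

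**Figure D3:**
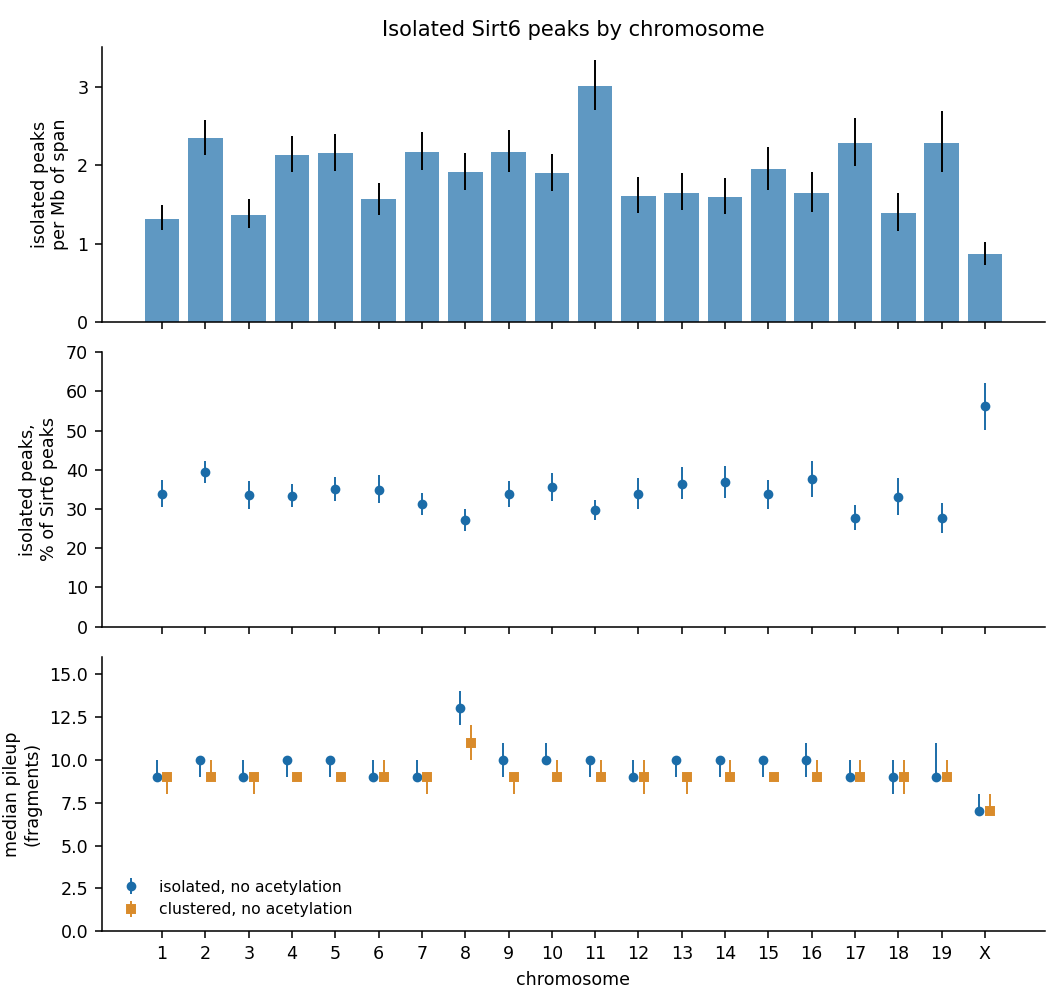
Isolated Sirt6 peaks without acetylation calls on chromosomes 1 to 19 and X: number per Mb of covered span with exact Poisson intervals (top), percent of all Sirt6 peaks of the chromosome with Wilson intervals (middle) and median pileup in fragments with order-statistic intervals for isolated and clustered peaks without acetylation calls (bottom). Chromosome X has the lowest density, 0.864 per Mb, and the highest share, 56.2%, and chromosome 8 has the highest median pileup, 13.

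Peak height also differed between chromosomes, with chromosome 8 above and chromosome X below the rest. The 251 isolated peaks on chromosome 8 had a median pileup of 13 (interval 12 to 14), a median fold of 9.84 (9.12 to 10.4) and a median length of 534 bp (496 to 572). On each of the other 18 autosomes the median pileup was 9 or 10, the median fold 7.57 to 8.86 and the median length 360 to 455 bp. The 144 isolated peaks on chromosome X had a median pileup of 7 (7 to 8), a median fold of 6.47 and a median length of 284 bp (267 to 315). A fold of 15 or more was reached by 33 isolated peaks on chromosome 8 (13.1%), by 183 of 4456 on the other autosomes (4.11%) and by 0 of 144 on chromosome X. Clustered peaks without acetylation calls showed the same order, with median pileups of 11 on chromosome 8, 9 on the other autosomes and 7 on chromosome X.

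The local background moved in the same direction as the pileup. The lowest background of the list lay under 14.3% of the isolated peaks on chromosome 8, 43.1% on the other autosomes and 70.1% on chromosome X. The mean background was 0.406 fragments on chromosome 8, 0.331 on the other autosomes and 0.278 on chromosome X. The mean pileup was 13.6 ± 5.67 on chromosome 8 (SD over 251 peaks), 10.5 ± 3.94 on the other autosomes (SD over 4456 peaks) and 7.63 ± 2.03 on chromosome X (SD over 144 peaks). Mean pileup over mean background came to 33.6, 31.6 and 27.4 in that order of chromosomes. The part of the background in these differences was not tested.

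A stretch of chromosome 14 stood apart more strongly. When the chromosomes were divided into bins of 10 Mb, 214 bins held at least 8 isolated peaks, and 200 of them had a median pileup between 7 and 12. The highest median, 26 fragments, belonged to the bin from 100 to 110 Mb of chromosome 14, whose 8 isolated peaks had pileups from 7 to 32. The next bin, from 110 to 120 Mb, had a median of 19 over 9 peaks, with pileups from 8 to 43. The next 3 bins belonged to chromosome 8, from 110 to 120 Mb with a median of 15.5, from 100 to 110 Mb with 15 and from 80 to 90 Mb with 14. The bins were formed after the values on chromosome 14 had been seen.

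Taken from 90 Mb to its end, chromosome 14 held 20 isolated peaks with a median pileup of 24 (interval 10 to 26) and a median length of 754 bp (400 to 1203). The 180 isolated peaks before 90 Mb had a median pileup of 10 (9 to 10) and a median length of 428 bp (385 to 473). The mean background was 0.702 fragments beyond 90 Mb and 0.347 before it, and no isolated peak beyond 90 Mb had the lowest background of the list. The mean pileup over the mean background was 29.1 beyond 90 Mb and 31.1 before it, so ChIP and control fragments were both more numerous beyond it. The rise was not particular to isolated peaks. Clustered peaks without acetylation calls had a median pileup of 15 beyond 90 Mb (49 peaks) and 9 before it (225 peaks). Their mean background was 0.633 fragments beyond 90 Mb and 0.355 before it. In the CMS-IP experiment, which used other libraries, the bin from 100 to 110 Mb held 236 windows lower in KO and 0 higher, and the KO to WT ratio of input reads in those lower windows was 0.393. In the bin from 110 to 120 Mb there were 24 lower and 0 higher windows, with an input ratio of 0.395. Such ratios were not particular to this stretch. The bin from 40 to 50 Mb of chromosome 4 had 0.324 (31 lower windows) at a median pileup of 9.50. That from 120 to 130 Mb of chromosome 6 had 0.399 (27 lower windows) at 10.5. Other bins had higher ratios, up to 0.973 on chromosome 16. The part of the local background and of the unequal inputs in the peak heights on chromosome 14 was not tested.

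Acetylation peaks were mostly far from the isolated Sirt6 peaks. The median distance to the nearest peak of any of the 8 lists was 159372 bp (interval 152797 to 165961) for isolated and 122151 bp (117643 to 126625) for clustered peaks. An acetylation peak stood within 1000 bp of 31 isolated peaks (0.637%) and of 686 clustered peaks (8.66%), and within 10000 bp of 77 isolated (1.58%) and 1066 clustered peaks (13.5%). The choice of both classes used the acetylation lists, and clustered peaks can lie beside a neighbour that does carry a call, so this is a description of the classes.

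The lists differed in how often they came near. Untreated KO H3K9ac, the longest list with 3593 peaks, had a peak within 10000 bp of 46 isolated peaks (0.945%, interval 0.710% to 1.26%) and of 771 clustered peaks (9.73%, 9.10% to 10.4%). Untreated WT H3K9ac, with 2789 peaks, came within that distance of 29 isolated (0.596%, 0.415% to 0.855%) and 26 clustered peaks (0.328%, 0.224% to 0.480%). The contrast between isolated and clustered peaks was thus -8.79 percentage points for KO H3K9ac and 0.268 for WT H3K9ac, each measured in 1 library.

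For untreated H3K56ac, 20 isolated peaks (0.411%) and 263 clustered peaks (3.32%) lay within 10000 bp of a KO peak. For the WT list the numbers were 28 isolated (0.575%) and 134 clustered peaks (1.69%). After RA the shares for isolated peaks lay between 0.329% and 0.514% in the 4 lists. Within 1000 bp, 23 isolated peaks (0.473%) had a KO H3K9ac peak and 9 (0.185%) a KO H3K56ac peak, against 1 each for the untreated WT lists. Among clustered peaks, 491 (6.20%) had a KO H3K9ac peak that near and 1 a WT H3K9ac peak. For H3K56ac, 164 clustered peaks (2.07%) had a KO peak and 78 (0.984%) a WT peak. The closest approach was a gap of 1 bp, between a KO H3K9ac peak and the isolated peak on chromosome 1 from 88339097 to 88339864, which had a fold of 7.31. It was named because it lay nearest the overlap limit.

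**Figure D4:**
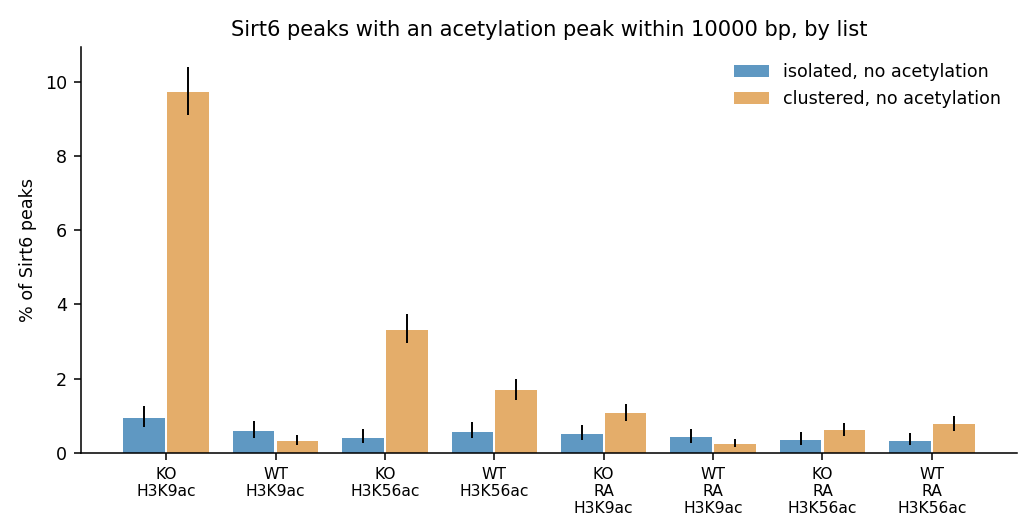
Percent of isolated (n = 4866) and clustered (n = 7923) WT Sirt6 peaks without acetylation calls that had a peak of each of the 8 acetylation lists within 10000 bp, with Wilson intervals. Clustered peaks reach 9.73% for untreated KO H3K9ac, while isolated peaks stay between 0.329% and 0.945% in all 8 lists.

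The Sirt6 peak next to an isolated peak carried an acetylation call in 621 of 4865 cases, or 12.8% (interval 11.9% to 13.7%). The same was true of 670 of 7923 clustered peaks without a call of their own, or 8.46% (7.86% to 9.09%). Over the whole list 11.9% of Sirt6 peaks had such a call. By the distance rule, the peak next to a clustered peak is itself clustered, while that next to an isolated peak can be of either kind. Spacing and acetylation calls also formed the classes, so these shares describe the classes and their difference was not tested.

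The CMS-IP windows were not used in choosing the isolated peaks. The authors' deposited table lists windows of 500 bp whose IP reads differed between KO and WT at p under 0.001, and its adjusted p-values correspond to 3084167 windows tested. Of those tested, 0.0719% were listed as higher in KO and 0.0506% as lower. The isolated peaks touched 9324 windows of the same grid, of which 29 were listed as higher in KO, or 0.311% (interval 0.217% to 0.446%), and 6 as lower, or 0.0644% (0.0295% to 0.140%). The share of higher windows lay above that among all windows tested, and the interval of the share of lower windows held the corresponding value. Clustered peaks touched 12688 windows, of which 25 were listed as higher (0.197%, 0.134% to 0.291%) and 11 as lower (0.0867%, 0.0484% to 0.155%). How many of the touched windows had enough reads to be tested is not known, since only the listed windows were used here.

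The 35 listed windows overlapped 33 isolated peaks on 15 chromosomes, and most differences in them were small in reads. Of these, the authors' deposited table (edgeR) gave the smallest p to a window higher in KO on chromosome 13, from 3477501 to 3478000, at an adjusted p of 5.38e-08 and a log2 difference of 1.63. The IP had 149 reads in KO and 57 in WT there, and the input 31 in KO and 36 in WT. The isolated peak inside it, from 3477649 to 3477868, was among the weaker ones, with a fold of 5.30 and a pileup of 6. Among all listed windows, 2218 higher and 1562 lower in KO, 139 passed an adjusted p of 0.1 by the authors' deposited table. By the same table, 2 of the 35 windows at isolated peaks did so.

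The second was a window lower in KO on chromosome 10 from 81089501 to 81090000, with an adjusted p of 0.0234 in the authors' deposited table. KO held 0 reads in the IP and 0 in the input there, against 30 and 42 reads in WT, so the input differed as completely as the IP. The isolated peak there, from 81089975 to 81090321 with a fold of 8.86, shared only 26 bp with it. The other 33 windows had an adjusted p of 1 in the authors' deposited table and did not pass.

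Further windows with small unadjusted p are given by their reads. The window on chromosome 19 from 57082501 to 57083000 had 54 reads in the KO IP and 17 in the WT IP, with inputs of 31 in KO and 30 in WT. The window on chromosome 14 from 82483501 to 82484000 was lower in KO, with 11 reads in the KO IP and 55 in the WT IP, and inputs of 8 in KO and 19 in WT. The window on chromosome 7 from 13365001 to 13365500 had 80 reads in the KO IP and 38 in the WT IP, with inputs of 98 in KO and 83 in WT. These peaks had folds of 6.47, 5.91 and 8.08, close to or below the median of the isolated peaks.

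At an isolated peak on chromosome 8 from 112260937 to 112261645, with a fold of 14.6, 2 adjacent windows were listed as higher in KO. The KO IP had 54 and 48 reads in them, and the WT IP 23 and 20. An isolated peak on chromosome 5 from 125869606 to 125870178, with a fold of 16.7, also spanned 2 higher windows, with 27 and 20 reads in the KO IP and 6 and 5 in the WT IP. This peak was the strongest of the 33 that overlapped a listed window.

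Summed over the listed windows, the inputs were not level. In the 29 higher windows at isolated peaks the IP held 1120 reads in KO and 407 in WT, a ratio of 3.24 (exact interval 2.89 to 3.64) after scaling to library size. Their input held 1096 reads in KO and 931 in WT, a scaled ratio of 0.818 (0.749 to 0.894). For the 6 lower ones the IP ratio came to 0.223 (0.156 to 0.311) and the input ratio to 0.446 (0.336 to 0.589). Since the IP difference is what put a window in the table, the IP ratios restate that choice. Within 10000 bp of an isolated peak, 294 higher windows had an input ratio of 0.921 (0.894 to 0.950) and 90 lower windows one of 0.534 (0.497 to 0.573). Farther away, the input ratio was 1.02 (1.00 to 1.03) in 1924 higher and 0.548 (0.539 to 0.557) in 1472 lower windows.

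Taking distance in place of overlap, 221 isolated peaks (4.54%, interval 3.99% to 5.16%) and 443 clustered peaks (5.59%, 5.11% to 6.12%) had a higher window within 10000 bp. The difference was -1.05 percentage points (-1.81 to -0.261). With isolation set at 5000 bp it was -0.460 (-1.23 to 0.322), and with isolation judged among Sirt6 peaks at a −log10 q of at least 10 it was -1.08 (-2.43 to 0.151), or -1.08 (-2.20 to 0.0906) with isolation judged in the whole list. All 3 intervals held 0. At 1000 bp the order was the opposite, with 81 isolated (1.66%) and 93 clustered peaks (1.17%), a difference of 0.491 percentage points (0.0748 to 0.944). At 100000 bp it was -4.52 percentage points (-6.05 to -2.97). Clustered peaks share windows with their neighbours, so their counts are less independent than those of isolated peaks. Set against isolated peaks with an acetylation call, of which 2.21% (1.45% to 3.36%) had a higher window within 10000 bp, those without a call were 2.33 percentage points higher (1.06 to 3.31).

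Lower windows lay within 10000 bp of 68 isolated (1.40%, 1.10% to 1.77%) and 129 clustered peaks (1.63%, 1.37% to 1.93%). The difference, -0.231 percentage points, could not be told from 0 (-0.653 to 0.219). A lower window was overlapped by 6 of the 4866 isolated peaks without a call (0.123%) and by 9 of the 950 with one (0.947%), a difference of -0.824 percentage points (-1.67 to -0.353). Within 100000 bp the shares were 9.82% without a call and 8.00% with one, and the difference of 1.82 percentage points had the opposite sign, with an interval from -0.239 to 3.61. The median distance to the nearest higher window was 354828 bp for isolated and 285201 bp for clustered peaks, and to the nearest lower window 1245898 bp for isolated and 1004382 bp for clustered peaks.

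**Figure D5:**
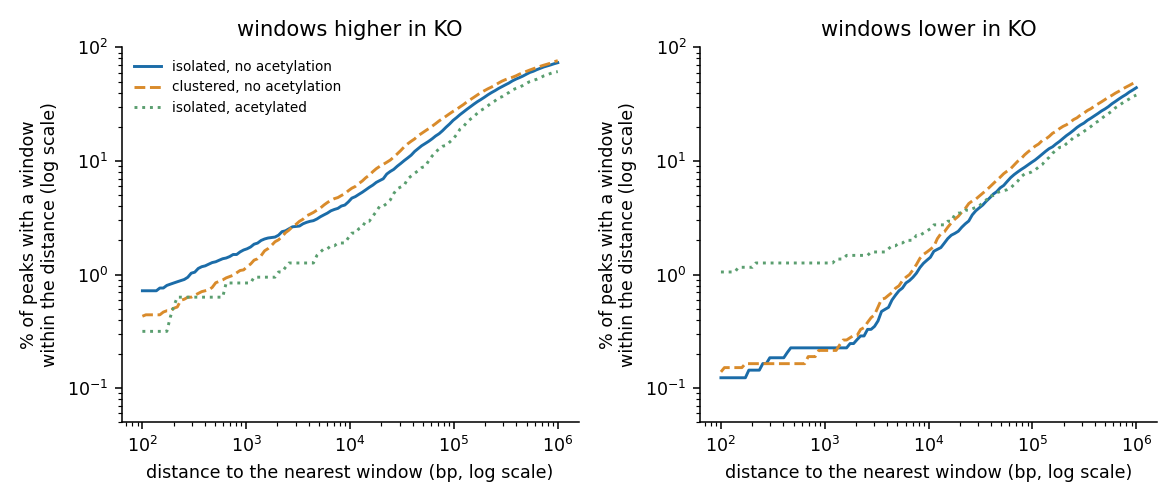
Percent of WT Sirt6 peaks (log scale) with a CMS-IP window higher (left) or lower (right) in KO within a given distance in bp (log scale), for isolated peaks without an acetylation call, clustered peaks without one and isolated peaks with one. The first 2 curves cross for higher windows, from 1.66% above 1.17% at 1000 bp to 4.54% below 5.59% at 10000 bp. For lower windows isolated peaks with a call lie highest at short distances.

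The share of isolated peaks near a listed window differed between chromosomes and did not simply follow the number of windows there. A higher window stood within 10000 bp of 8.17% of the isolated peaks on chromosome 11 (30 peaks) and 8.12% on chromosome 6 (19 peaks), against 0.766% on chromosome 1 (2 peaks). A lower window did so for 5.36% on chromosome 1 (14 peaks), 4.29% on chromosome 19 (6 peaks) and 3.19% on chromosome 8 (8 peaks). Chromosomes 11 and 6 held 265 and 335 higher windows of the table, but chromosome 15, with 95, had a share of 7.92% (16 peaks) and chromosome 2, with 144, one of 2.81% (12 peaks). Chromosome 1 held 323 lower windows. Chromosome 14 held the most lower windows, 519, and 6 of its 200 isolated peaks lay near one. Isolated peaks near a higher window had a median fold of 7.57 (7.28 to 8.08), against 8.08 (8.06 to 8.08) for those farther away. Isolated peaks near a lower window had a median fold of 8.86 (7.57 to 9.84), against 8.08 (7.91 to 8.08), and these intervals overlap.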

How the data were processed

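The submitters' processing notes name BWA 0.5.9, Picard, MACS2 2.0.10 and mm9. Per the file headers, each library had its own peak calls, with q up to 0.01 and 1 tag kept per position, against whole-cell extract for Sirt6 and without a control for acetylation. The authors' deposited lists give the pileup signal, −log10 p and −log10 q, and fold ratio of each peak. The authors' deposited CMS-IP table gives read counts, RPKM, and edgeR's log2 fold change, p-value and adjusted p for each window, per the column names. The sources used here do not give its aligner.

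From these, distances were measured edge to edge. Shares carry Wilson intervals, their differences Newcombe intervals, medians exact order-statistic intervals (differences combined as in Newcombe's method), densities and pileups exact Poisson intervals, and read ratios exact (Clopper-Pearson) intervals, all at 95%. Read ratios were scaled to library sizes implied by counts and RPKM: 11413874 (KO) and 13451714 (WT) reads in the IP, 23924232 (KO) and 16623305 (WT) in the input. Spans run to the highest position in any file. The steps were tested on simulated data. The number of per-sample columns without use was 0. Named regions are the 10 isolated peaks with the highest fold, 3 with the lowest, the 3 longest, those next to the distance limit, those at the windows with the smallest p, and the extreme chromosomes. Ties in fold were taken in order of chromosome name and start. Planned gene and sequence descriptions were left out for want of an mm9 reference. The members and choices were made with earlier results of these data known. The software was scipy 1.17.1, pandas 2.3.3, numpy 2.4.6 and matplotlib 3.10.9 under Python 3.11.15.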

Additional observations from a re-analysis of the deposited data

How the results depend on the processing

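No paired analysis was possible because each group held 1 library, and for the same reason no library could be left out. The number of isolated peaks without acetylation calls stayed within 1.5 times 4866 under 8 alternatives, from 3499 to 7053. It was 2100 when only Sirt6 peaks with a −log10 q of at least 10 were kept and isolation was judged in the whole list. In those peaks the difference from clustered peaks was 0 for fold, 0 for pileup and 25.5 bp for length. With isolation judged among such peaks alone it was 0, 0 and 32.5 bp, the median distance to acetylation was 152393 bp, and the ratio of the density on chromosome 11 to that on X was 13.2, in place of 3.49. With all Sirt6 peaks kept, the ratio of chromosome 11 to X reversed to 0.529 when isolated peaks were taken as a share of the chromosome's Sirt6 peaks. Joining peaks within 1000 bp gave differences of 0.198 in fold (-0.0821 to 0.612), 18 bp in length (-9.29 to 45.7) and -5.69 percentage points in higher CMS-IP windows within 10000 bp. Keeping only acetylation peaks with a −log10 q of at least 10 gave 59 bp in length and a median distance to acetylation of 457730 bp. With isolation at 20000 bp that distance was 172479 bp. For higher windows, the difference between isolated and clustered peaks, -1.05 percentage points, reversed to 0.491 within 1000 bp. Its interval held 0 with isolation at 5000 bp (-0.460, -1.23 to 0.322) and for the stricter Sirt6 peaks, with isolation among them (-1.08, -2.43 to 0.151) or in the whole list (-1.08, -2.20 to 0.0906). It was -4.52 within 100000 bp and -0.102 (-0.284 to 0.104) for windows whose adjusted p was under 0.1 by the authors' deposited table. For lower windows it was -0.231, -0.715 with isolation at 20000 bp, -3.06 within 100000 bp, and with the stricter Sirt6 limit 0.430 (isolation among those peaks) or 0.439 (in the whole list). The cause of these changes was not tested. Chosen after seeing the data were the alternatives for the distance to acetylation, the stricter limit for density, and leaving out chromosome 8 and chromosome 14 from 90 Mb, which gave differences of 0.701 in fold, 1 in pileup and 44 bp in length. The planned gene and sequence results were not run. Depth is a limit: at a median of 10 fragments, isolated peaks of unequal fold can often not be told apart.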
